A study of Homo sapiens with 6 samples.

Results

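The genes described here encode the fixed parts of the motile axoneme other than its dynein arms. They comprise radial spokes, the nexin-dynein regulatory complex with the axonemal ruler, the central pair apparatus, proteins inside and along the doublet microtubules, and proteins at the bases of spokes and inner arms. Members were chosen by gene symbol, with earlier results of these data known. Of 37 named genes, 34 had a row among the 19830 genes of the comparison, and the RNA of TEKT1, TEKT3 and SPAG6 was not analysed here. RNA was measured in PANC-1, a cell line established from a human pancreatic ductal carcinoma. Cells received SOX9 siRNA at 25 nM (2 libraries) or control siRNA at 25 nM (2 libraries) with the same Lipofectamine reagent, and pooled cells were harvested at 48 hours. SOX9 is a transcription factor of pancreatic duct cells, and the comparison asks which transcripts differ when it is depleted. The labels do not say whether each group's libraries came from separate cultures, so p-values measure only the spread between these libraries, which can be technical. SOX9 ChIP-seq samples of the series, 2 in number, were not analysed here.

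A motile cilium is built on a ring of doublet microtubules around a central pair. Radial spokes reach from the doublets towards the central pair and pass signals to the dynein motors, while the nexin-dynein regulatory complex links neighbouring doublets. Proteins inside the doublets stabilize them. Non-motile primary cilia lack spokes and a central pair, and in multiciliated cells RFX and FOXJ1 transcription factors drive many of the motile genes.

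The deposited comparison gives for each gene a mean normalized count over the 4 libraries, a log2 fold change with a standard error, and holds no values per library. Whole reads of each library were recovered from the digits of that mean, with a single solution for each of the 34 genes. They are given as normalized reads, that is reads divided by the library's size factor, unless called reads. The recovered libraries carry no replicate number, so each group has a deeper and a shallower library, always given in that order. Size factors were 0.994 and 0.908 for SOX9 siRNA and 1.131 and 0.986 for control siRNA.

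Which group is the numerator is not named in the headers. The negative sign at SOX9 is taken to mean that fold changes are SOX9 siRNA over control siRNA, so SOX9 is no check of the labels, and all directions would turn if that reading were wrong. SOX9 had 1346 and 2217 normalized reads with SOX9 siRNA, against 3019 and 3350 with control siRNA, and it was not called in the authors' deposited table (adjusted p = 0.0643). The cells had the keratins of simple epithelia, with mean normalized counts of 203350 for KRT8, 130452 for KRT18 and 99583 for KRT19.

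Axoneme genes were mostly higher with SOX9 siRNA. By the authors' deposited table (DESeq2 Wald test, two-sided, adjusted p under 0.05) 8 of 27 tested genes rose and 0 fell, against 0.868% and 0.939% of all 14063 tested genes. The 8 were SPEF1, C9orf116, CFAP69, C6orf165, ROPN1L, NME5, CCDC113 and IQCG, and each of the 5 structural classes held at least 1. Control values of SPEF1 (7.08 and 12.2 normalized reads) and CFAP69 (21.2 and 15.2) lay below 21.94, the lowest mean of a tested gene. Both were tested only because of their higher SOX9 siRNA reads. The median log2 fold change was 0.83 over the 27 genes, against -0.02 over all tested genes, and 25 of the 27 were above 0, against 47.9% of all tested genes. At least 2-fold higher were 11 axoneme genes, against 1.11% of all tested genes, and at least 4-fold higher were 5, against 0.0853%.

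The count differed with the test used. By limma-trend on the recovered reads, 0 of 13056 genes were called in either direction (smallest adjusted p = 0.398), although 17 axoneme genes were higher and 0 lower at an unadjusted limma p under 0.05, among 685 genes higher and 723 lower. Tested against a 1.5-fold change, 2 axoneme genes were called, C9orf116 and C6orf165.

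**Figure D1:**
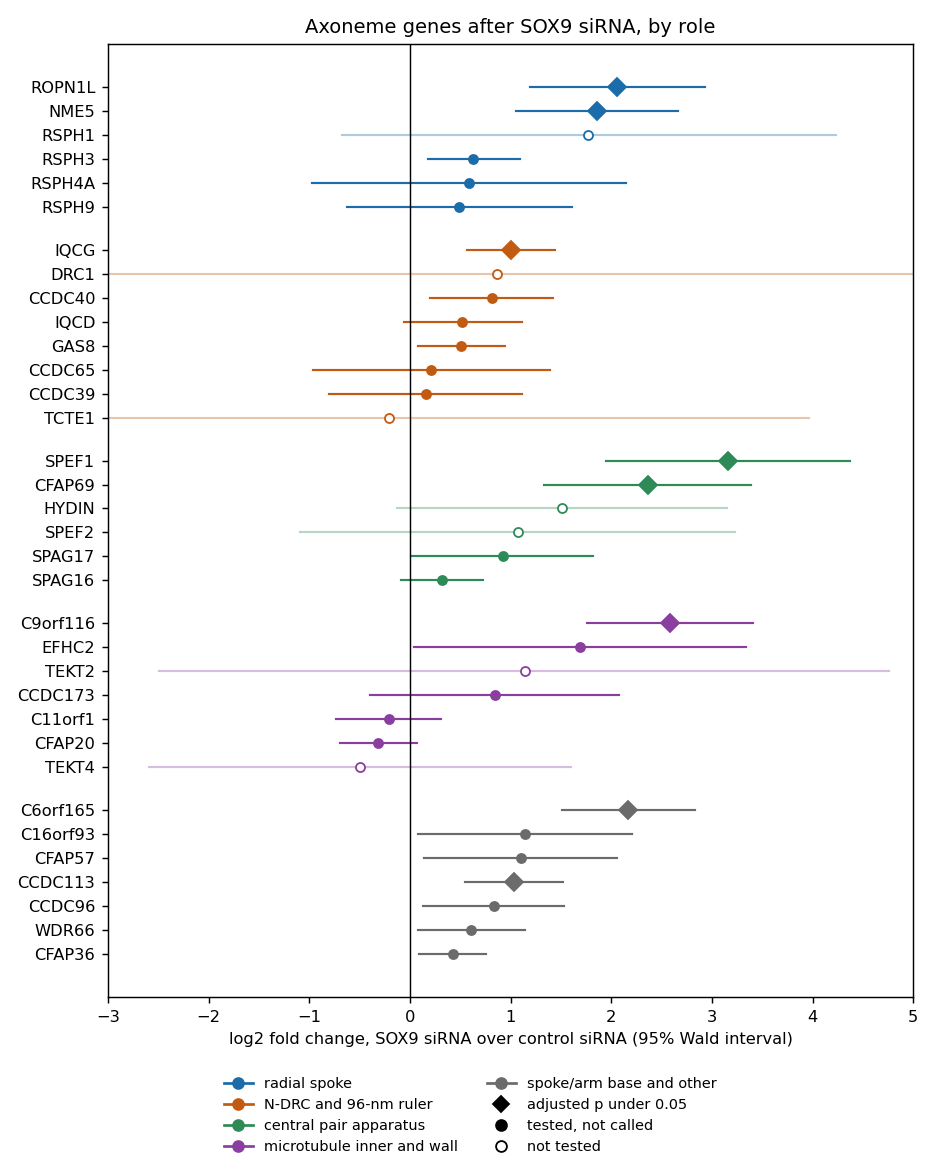
Log2 fold change of SOX9 siRNA over control siRNA (horizontal axis) for the 34 axoneme genes, in 5 structural classes by colour, with 95% Wald intervals; those of DRC1 and TCTE1 run past the axis. Diamonds mark the 8 genes called higher, filled circles the 19 tested genes that were not called and open circles the 7 genes not tested; most points lie right of 0.

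Radial spokes held 2 of the rises among 5 tested genes. ROPN1L, a spoke protein with a domain like the docking domain of protein kinase A, had 247 and 137 normalized reads with SOX9 siRNA, against 52.2 and 39.6 with control siRNA. The groups of ROPN1L did not overlap, and its lower SOX9 siRNA library was 2.62-fold above its higher control library. In the authors' deposited table ROPN1L rose 4.17-fold (95% interval 2.28 to 7.64, log2 fold change 2.06, standard error 0.45, adjusted p = 0.00156).

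NME5, a spoke protein with a nucleoside diphosphate kinase domain, had 172 and 161 normalized reads with SOX9 siRNA, against 35.4 and 56.8 with control siRNA. Both SOX9 siRNA libraries of NME5 lay close together and well above the control pair. The authors' deposited table gave NME5 a 3.63-fold rise (2.08 to 6.33, log2 fold change 1.86, standard error 0.41, adjusted p = 0.00196).

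RSPH3, a protein of the spoke stalk, had 485 and 500 normalized reads with SOX9 siRNA, against 294 and 343 with control siRNA. Its groups did not overlap, but RSPH3 was not called in the authors' deposited table at 1.55-fold (1.13 to 2.12, adjusted p = 0.162).

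The spoke head genes had few reads. RSPH4A had 37.2 and 16.5 normalized reads with SOX9 siRNA, against 19.5 and 16.2 with control siRNA, and RSPH9 had 48.3 and 58.4, against 27.4 and 48.7. Both had overlapping groups, and RSPH9 overlaps MRPS18A in the annotation. RSPH1 was not tested, with 21 and 8 reads with SOX9 siRNA and 2 and 7 with control siRNA. The 95% interval of each of these head genes held both no change and a 2-fold rise.

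The nexin-dynein regulatory complex and the ruler held 1 rise among 6 tested genes. IQCG, the subunit also called DRC9, had 620 and 613 normalized reads with SOX9 siRNA, against 287 and 329 with control siRNA. Each pair of IQCG values was tight and the pairs were far apart. By the authors' deposited table IQCG rose 2.00-fold (1.48 to 2.71, log2 fold change 1.00, standard error 0.22, adjusted p = 0.00207). In the annotation IQCG overlaps the ribosomal protein gene RPL35A, which the authors' deposited table gives a mean normalized count of 24709 and a log2 fold change of -0.11.

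GAS8, the subunit DRC4, had 930 and 899 normalized reads with SOX9 siRNA, against 561 and 723 with control siRNA. IQCD, the subunit DRC10, had 419 and 519, against 257 and 397. In both genes the groups were apart, for IQCD by only 1.06-fold between the nearest libraries. Neither was called in the authors' deposited table, GAS8 at 1.43-fold (1.06 to 1.92, adjusted p = 0.295) and IQCD at 1.43-fold (0.956 to 2.15, adjusted p = 0.544).

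CCDC65, the subunit DRC2, had 44.3 and 33.1 normalized reads with SOX9 siRNA, against 28.3 and 38.5 with control siRNA, so its groups overlapped. DRC1 had 7 and 0 reads with SOX9 siRNA and 1 and 3 with control siRNA. TCTE1, the subunit DRC5, had 3 and 1 reads, against 2 and 3. Neither of these last genes was tested.

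CCDC39 and CCDC40 together form the ruler that spaces spokes and arms. CCDC40 had 429 and 497 normalized reads with SOX9 siRNA, against 199 and 330 with control siRNA, without overlap. CCDC39 had 59.4 and 55.1, against 45.1 and 57.8, with overlap. CCDC40 was not called in the authors' deposited table at 1.75-fold (1.15 to 2.68, adjusted p = 0.195), nor was CCDC39 at 1.11-fold (0.574 to 2.16), and the difference between the partners was not tested.

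**Figure D2:**
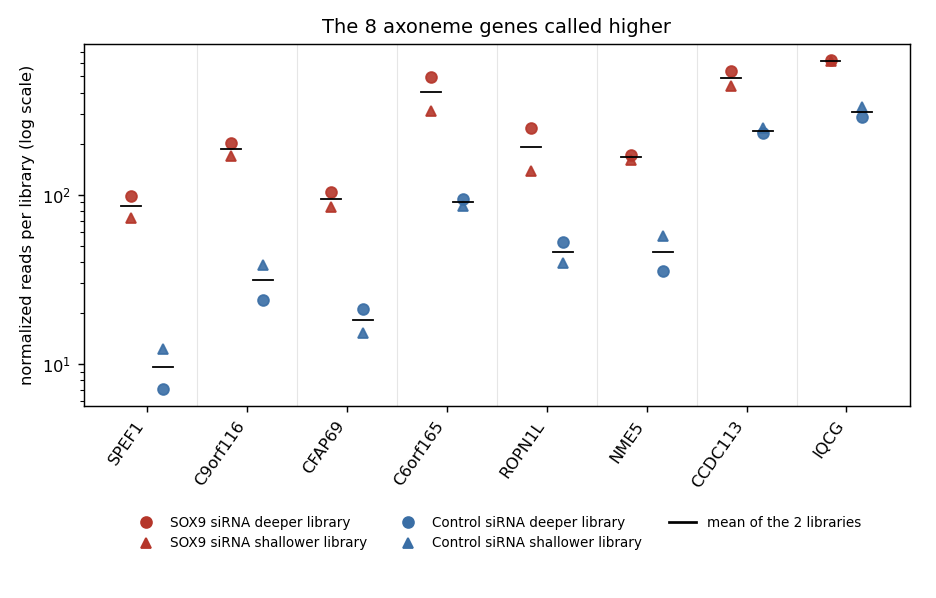
Normalized reads per library (vertical log axis) of the 8 axoneme genes called higher, ordered by fold change, with SOX9 siRNA in red at left and control siRNA in blue at right for each gene. Circles are deeper libraries, triangles shallower ones and bars the mean of the 2; in all 8 genes both red points lie above both blue ones and the red circle is the higher of the red pair.

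The central pair held 2 rises among 4 tested genes, including the largest fold change of the 27. SPEF1, which bundles microtubules of the central pair, had 97.6 and 72.7 normalized reads with SOX9 siRNA, against 7.08 and 12.2 with control siRNA. In reads, SPEF1 had 97 and 66 with SOX9 siRNA and 8 and 12 with control siRNA, so its control level rests on few reads, and the nearest libraries were 5.97-fold apart. The authors' deposited table gave SPEF1 an 8.92-fold rise (3.86 to 20.7, log2 fold change 3.16, standard error 0.62, adjusted p = 2.36e-04).

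CFAP69, a protein of a central pair projection in Chlamydomonas, had 103 and 84.8 normalized reads with SOX9 siRNA, against 21.2 and 15.2 with control siRNA. The groups of CFAP69 were 4.00-fold apart at their nearest libraries. In the authors' deposited table CFAP69 rose 5.13-fold (2.52 to 10.5, log2 fold change 2.36, standard error 0.52, adjusted p = 0.00209).

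SPAG17, a protein of another central pair projection, had 93.6 and 72.7 normalized reads with SOX9 siRNA, against 42.5 and 45.7 with control siRNA, without overlap. SPAG16, which lies between the central microtubules, had 811 and 918, against 638 and 747, also without overlap. Neither was called in the authors' deposited table, and the interval of SPAG16, 0.940 to 1.66 around 1.25-fold, left out a 2-fold rise.

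HYDIN and SPEF2, large proteins of central pair projections, were not tested. HYDIN had 27 and 22 reads with SOX9 siRNA and 9 and 10 with control siRNA, and reads of its near-identical copy HYDIN2 could be counted with it. SPEF2 had 15 and 11 reads, against 10 and 4. In both genes each SOX9 siRNA library had more normalized reads than each control library.

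Microtubule inner and wall proteins were uneven, with 1 rise among 5 tested genes and log2 fold changes that ran from 2.58 to -0.32. C9orf116, now PIERCE1, a protein inside the doublets, had 202 and 170 normalized reads with SOX9 siRNA, against 23.9 and 38.5 with control siRNA. The nearest libraries of C9orf116 were 4.40-fold apart. The rise of C9orf116 in the authors' deposited table was 5.99-fold (3.38 to 10.6, log2 fold change 2.58, standard error 0.42, adjusted p = 3.86e-06).

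CFAP20, a protein of the doublets' inner junction, had 1102 and 1039 normalized reads with SOX9 siRNA, against 1463 and 1200 with control siRNA. Of the 27 tested genes CFAP20 alone had both SOX9 siRNA libraries below both control libraries. It was not called in the authors' deposited table, at 0.804-fold (0.614 to 1.05, adjusted p = 0.602). C11orf1, now CFAP68, another inner protein, had 352 and 485, against 437 and 533, with overlapping groups and, by the authors' deposited table, a log2 fold change of -0.21 (-0.74 to 0.31, adjusted p = 0.883).

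EFHC2, a protein of the doublet wall, had 24.2 and 82.6 normalized reads with SOX9 siRNA, against 8.84 and 24.3 with control siRNA. The shallower SOX9 siRNA library of EFHC2 stood above the other 3. The authors' deposited table gave EFHC2 a log2 fold change of 1.69, not called (adjusted p = 0.422). From its reads the log2 difference was 0.54 without that library and 2.59 without the shallower control library.

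CCDC173, now CFAP210, an inner protein, had 50.3 and 39.7 normalized reads with SOX9 siRNA, against 31.8 and 18.3 with control siRNA, and was not called in the authors' deposited table (adjusted p = 0.705). Tektins form filaments along the doublets, and the 2 with a row were not tested. TEKT2 had 5 and 3 reads with SOX9 siRNA and 2 and 2 with control siRNA. TEKT4 had 10 and 7, against 9 and 17, with overlapping groups.

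Among proteins at the bases of spokes and inner arms, and others linked to the axoneme, 2 of 7 genes rose. In all 7 both SOX9 siRNA libraries were above both control libraries, against 22.0% of tested genes with recovered reads. C6orf165, now CFAP206, a spoke base protein in Tetrahymena, had 496 and 313 normalized reads with SOX9 siRNA, against 94.6 and 85.2 with control siRNA. The SOX9 siRNA libraries of C6orf165 were further from each other than the control libraries were, and the nearest libraries of the groups were 3.31-fold apart. The rise of C6orf165 in the authors' deposited table was 4.50-fold (2.85 to 7.11, log2 fold change 2.17, standard error 0.34, adjusted p = 1.64e-06), the smallest adjusted p of the 27.

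CCDC113 and CCDC96 encode partners in a complex in Tetrahymena. CCDC113 had 536 and 440 normalized reads with SOX9 siRNA, against 231 and 247 with control siRNA. CCDC96 had 206 and 153, against 112 and 89.3. Both had groups that did not overlap. By the authors' deposited table CCDC113 rose 2.05-fold (1.46 to 2.87, log2 fold change 1.03, standard error 0.25, adjusted p = 0.00574), and CCDC96 was not called there at 1.78-fold (1.10 to 2.90, adjusted p = 0.292).

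WDR66, now CFAP251, a spoke base protein, had 292 and 312 normalized reads with SOX9 siRNA, against 181 and 214 with control siRNA. CFAP57, of the inner arm base in Chlamydomonas, had 108 and 93.7, against 61.0 and 32.5. CFAP36, which binds the small GTPase ARL3, had 2869 and 2765, against 1971 and 2217. None of the 3 was called, and the authors' deposited table gave WDR66 1.53-fold (1.06 to 2.20, adjusted p = 0.314), CFAP57 2.15-fold (1.10 to 4.18, adjusted p = 0.322) and CFAP36 1.35-fold (1.07 to 1.69, adjusted p = 0.221). C16orf93, now CFAP119, had 77.5 and 51.8 normalized reads with SOX9 siRNA, against 29.2 and 29.4 with control siRNA, was not called in the authors' deposited table (adjusted p = 0.385) and overlaps PHKG2 and RNF40 in the annotation.

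**Figure D3:**
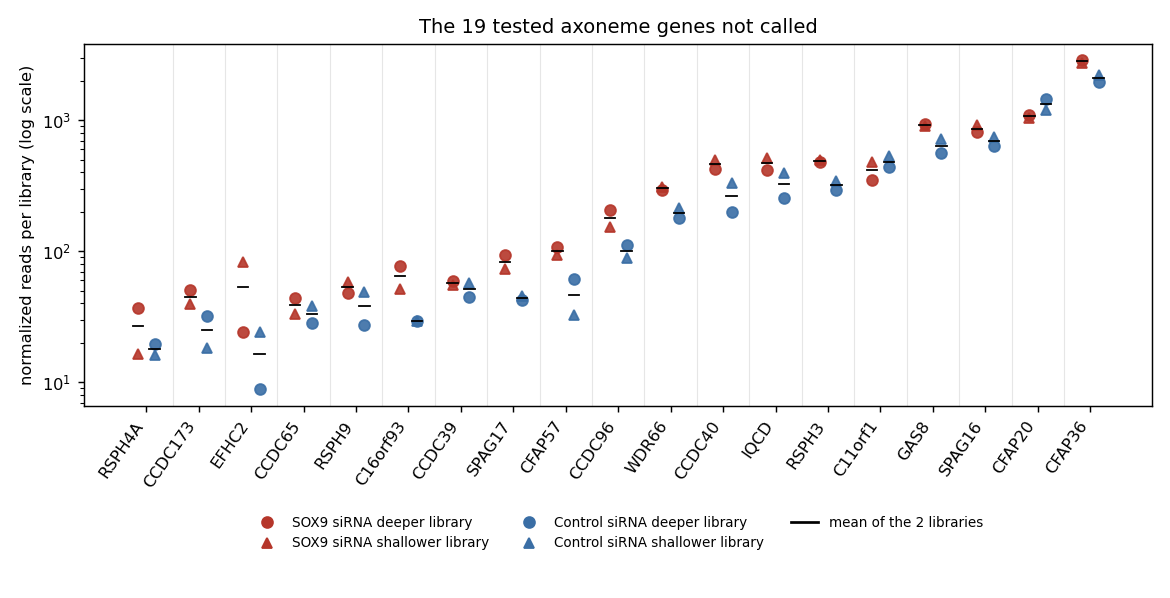
Normalized reads per library (vertical log axis) of the 19 tested axoneme genes that were not called, ordered by mean count, with SOX9 siRNA in red at left and control siRNA in blue at right for each gene. Circles are deeper libraries, triangles shallower ones and bars the mean of the 2; in 12 genes both red points lie above both blue ones, in CFAP20 both lie below, and in 6 the groups overlap.

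Genes that were not called lay mostly on the same side. Their median log2 fold change was 0.59, with 17 of 19 above 0. Both SOX9 siRNA libraries were above both control libraries in 12 of the 19, and in 20 of all 27, against 22.0% of tested genes with recovered reads. Both were below in 1 of 27, against 24.1%. The 6 genes with overlapping groups were RSPH4A, RSPH9, CCDC65, CCDC39, C11orf1 and EFHC2. In the authors' deposited table, higher genes numbered 18 of the 27 and lower genes 0 at an unadjusted p under 0.05, against 4.98% and 6.15% of all tested genes.

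The share of genes called differed with read depth. In ranges of mean normalized count chosen after the values were seen, 2 of 11 axoneme genes under 100 rose, against 0.460% of all tested genes in that range. These were SPEF1 and CFAP69, which were tested only through their SOX9 siRNA reads. RSPH4A (control 19.5 and 16.2 normalized reads) was so too, and EFHC2 (8.84 and 24.3) lay below 21.94, the lowest tested mean, in its deeper control library. From 100 to under 500, 6 of 12 rose, against 1.43%, and from 500 to under 3000, 0 of 4 rose, against 0.994%. Those 4 were GAS8, SPAG16, CFAP20 and CFAP36. The median standard error in the 3 ranges was 0.57, 0.31 and 0.20 for axoneme genes and for all tested genes alike. The median log2 fold change of axoneme genes was 0.92, 0.92 and 0.37, against 0.10, 0.06 and -0.02 for all tested genes.

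**Figure D4:**
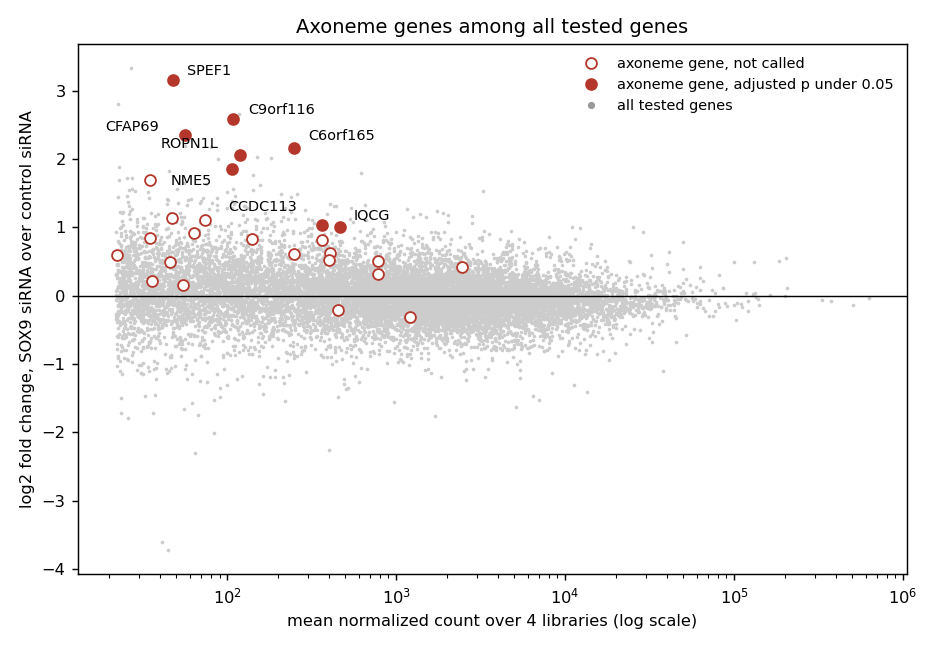
Log2 fold change of SOX9 siRNA over control siRNA (vertical axis) against mean normalized count over the 4 libraries (horizontal log axis) for all 14063 tested genes (grey dots) and the 27 tested axoneme genes (red rings, filled where called). The 8 called genes have means from 47.4 to 462, and CFAP20 and C11orf1 are the 2 axoneme genes below 0.

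The SOX9 siRNA libraries differed from each other. The deeper one had fewer normalized SOX9 reads and more normalized reads of each of the 8 called axoneme genes, by a median log2 difference of 0.28. The deeper library was also the higher one for 80.5% of 113 genes called higher with recovered reads, which were of any mean count. It was the higher one for 48.8% of all tested genes with recovered reads, and for 47.3% of those with a mean count from 30 to under 500. Among the 19 tested axoneme genes not called, 57.9% were higher in the deeper SOX9 siRNA library, by a median of 0.05. In the control pair the deeper library was the higher one for 3 of the 8 called axoneme genes (median log2 difference -0.15). The deeper control library was the higher one for 17 of the 113 genes called higher (median -0.33). For all tested genes with recovered reads the share was 51.5% (median 0.01), and for those with a mean count from 30 to under 500 it was 42.8% (median -0.09). Without the deeper SOX9 siRNA library, log2 differences from the reads of the 8 genes ran from 0.88 for CCDC113 to 2.92 for SPEF1. Leaving out any 1 of the 4 libraries kept all 8 differences above 0. That had to be so and is no check, since the groups of these 8 genes did not overlap.

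Other ciliary genes came from lists that hold none of the 37. Of 32 other tested axoneme genes 3 rose and 0 fell in the authors' deposited table, with a median log2 fold change of 0.59. CFAP46, of the central pair, had 153 and 142 normalized reads with SOX9 siRNA, against 48.6 and 54.8 with control siRNA. TSNAXIP1 had 160 and 160, against 50.4 and 74.1. Neither gene had overlapping groups.

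Dynein arm and assembly genes had 8 rises and 0 falls out of 26 tested, and their median was 0.48. DNAH7, a dynein heavy chain of the inner arms, had 264 and 140 normalized reads with SOX9 siRNA, against 27.4 and 36.5 with control siRNA. ZMYND10, a dynein assembly factor, had 302 and 277, against 53.1 and 90.3. DNAAF3, another assembly factor, had 540 and 560 reads, against 187 and 290, and WDR78, an inner arm intermediate chain, had 343 and 281 normalized reads, against 106 and 151. These 4 had the smallest p of that list and were without overlap.

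Intraflagellar transport genes, which serve non-motile cilia too, showed 8 rises and 0 falls out of 34, with a median of 0.45. IFT22 had 2567 and 2027 normalized reads with SOX9 siRNA, against 1209 and 1229 with control siRNA. TTC30A had 531 and 490, against 221 and 264, and IFT88 had 2148 and 2056, against 1069 and 1306. For KIF3B, a subunit of the transport motor, the authors' deposited table gave a 1.99-fold rise (1.51 to 2.63), and its reads were not recovered. The lists share the same 4 libraries, and differences between their medians were not tested.

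**Figure D5:**
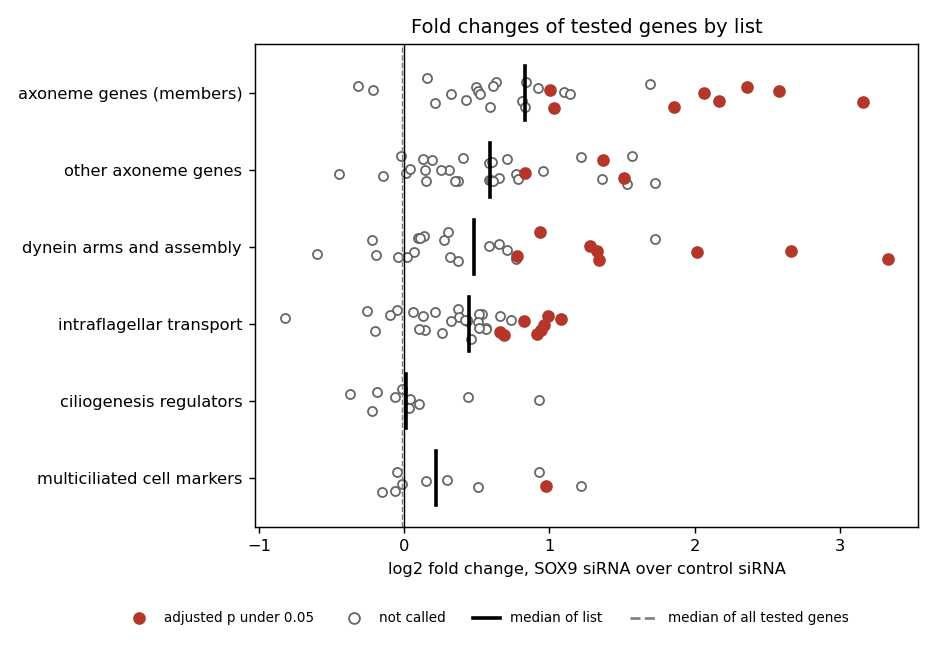
Log2 fold change of SOX9 siRNA over control siRNA (horizontal axis) of each tested gene in the axoneme members and 5 other lists, filled where called, with a thick bar at each list's median and a dashed line at the median of all tested genes, -0.02. The medians are 0.83 for axoneme members, 0.59 for other axoneme genes, 0.48 for dynein genes, 0.45 for intraflagellar transport, 0.01 for ciliogenesis regulators and 0.22 for multiciliated cell markers.

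Genes listed as ciliogenesis regulators gave no calls. The list includes RFX5 and RFX7 of the RFX family, and not all of its genes encode transcription factors. Of 10 tested regulators 0 were called in the authors' deposited table, and their median log2 fold change was 0.01. At an unadjusted p under 0.05 there was 1 in that table, RFX5 (adjusted p = 0.230), with 5787 and 5006 normalized reads with SOX9 siRNA, against 3749 and 4213 with control siRNA. RFX3 had 290 and 361 normalized reads with SOX9 siRNA, against 284 and 353 with control siRNA, and RFX2 had 274 and 236, against 348 and 247. FOXJ1 had 60.4 and 17.6, against 39.8 and 1.01. The groups overlapped in all 3, and the log2 interval of FOXJ1 in the authors' deposited table, -1.46 to 3.32, allows a large change in either direction.

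Markers of other ciliated cells were checked in these bulk samples, where more cells of a type and more RNA per cell cannot be told apart. Of 18 multiciliated cell markers 15 had a row, 10 were tested and 1 was called, MORN2, which had 1055 and 873 normalized reads with SOX9 siRNA, against 474 and 506 with control siRNA. Leaving out TUBB4B, whose reads were not recovered, the summed markers had 8065 and 7565 normalized reads with SOX9 siRNA, against 5383 and 5599 with control siRNA. Most of that sum was the centriole gene CETN2, at 5999 and 5783, against 4015 and 4278. LRRIQ1 was not tested, with 36 and 35 reads with SOX9 siRNA and 4 and 6 with control siRNA. C9orf24 had 2 and 8 reads, against 4 and 9. Other markers differed little. MCIDAS had 123 and 70.5 normalized reads with SOX9 siRNA, against 126 and 76.1 with control siRNA. CCNO had 442 and 321, against 411 and 358, and PIFO had 89.6 and 130, against 119 and 109, all with overlapping groups. Of the 10 tested markers 6 had a log2 fold change above 0, and the median was 0.22. FOXJ1, MCIDAS and CCNO are in the regulator list too.

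Of 16 male germ cell markers 6 had a row, 3 were tested and 0 called in the authors' deposited table. Their sum was 690 and 807 normalized reads with SOX9 siRNA, against 424 and 609 with control siRNA, mostly from SPAG4. TSSK6 had 89.6 and 108, against 76.9 and 75.1. SYCP3, also tested, went the other way with 16.1 and 15.4, against 34.5 and 26.4. AKAP3, not tested, was lower too, with 11 and 7 reads, against 13 and 14. DDX4, which defines germ cells, had 0 and 4 reads with SOX9 siRNA and 1 and 3 with control siRNA. The part of such cells in the axoneme result was not tested.

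Promoters were read from RefSeq (GRCh38.p14), from 250 bases before to 50 after the first listed start, and 33 of the 37 genes matched, among them TEKT1, TEKT3 and SPAG6, which have no RNA values here. RFX factors bind X-boxes, made of a pair of half-sites, and 8 motifs were searched on both strands, of which the RFX forms shown first were picked after their counts were seen. The half-site GTTGCC lay in 17 of 33 axoneme promoters (51.5%), against 12.6% of 15843 promoters of protein-coding genes. It lay in 2 of the 8 called genes and in 10 of 18 tested genes that were not called. The paired form, GTNNCC and GGNAAC with any 2 bases between them, can contain the half-site and lay in 5 of 33 (15.2%), against 1.67%.

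The other RFX forms overlap these. The looser half-site GTTNCC lay in 26 of 33, against 45.8% of all, the pair of GTTNCC and GGNAAC in 1 of 33, against 0.467%, and the pair of GTNNCC and GNNAAC in 6 of 33, against 2.23%. The forkhead motif GTAAACA lay in 2 of 33, against 2.61%. Of the SOX motifs, which share letters on opposite strands, ACAATG lay in 1 of 33, against 7.95%, and ATTGTT in 4 of 33, against 7.06%. A match describes these letters only and is no bound site.

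The following stretches show where the half-site or paired form lies in both called genes that have one and in 2 genes that were not called, 5′ to 3′ on the gene's strand, with that match in capitals. The stretches of SPAG16 and WDR66 each hold a further half-site on the opposite strand, left in lower case.
C9orf116 (called), half-site read on the opposite strand, chr9:135499870-135499916, minus strand: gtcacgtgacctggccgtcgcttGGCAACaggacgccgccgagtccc
CCDC113 (called), paired form, chr16:58249886-58249935, plus strand: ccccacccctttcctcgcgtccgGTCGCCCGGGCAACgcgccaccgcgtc
SPAG16 (not called), paired form, chr2:213284257-213284316, plus strand: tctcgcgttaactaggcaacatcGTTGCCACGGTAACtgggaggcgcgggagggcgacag
WDR66 (not called), paired form read on the opposite strand, chr12:121918537-121918591, plus strand: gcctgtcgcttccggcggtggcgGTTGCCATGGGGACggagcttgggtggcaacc

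The match begins 24 bases before the start in C9orf116, 27 in CCDC113, 184 in SPAG16 and 32 in WDR66. By the authors' deposited table C9orf116 rose 5.99-fold and CCDC113 2.05-fold, while SPAG16 and WDR66 were not called at 1.25-fold and 1.53-fold.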

How the data were processed

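RNA libraries of 2 SOX9 siRNA and 2 control siRNA samples were compared by the authors. HISAT2 2.0.5, featureCounts and DESeq2 1.18.1 are named in the submitters' processing notes, which list hg19 and mm10 without a role. Overlapping genes are uncertain, since the strand setting of the counting was not given in these sources. Beside the overlaps named above, CFAP57 overlaps EBNA1BP2 (mean normalized count 9691, log2 fold change -0.09) and SPAG17 overlaps WDR3 (4088, -0.25). CCDC39 overlaps TTC14 (3407, 0.26) and GAS8 overlaps DBNDD1 (1496, 0.12), and some members overlap further genes. Per the file headers, the deposited mean is a signal, counts divided by size factors and averaged over libraries. Fold changes and standard errors are on the authors' log2 scale, the Wald statistic is a score as deposited, and p-values and adjusted p-values are as deposited.

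Genes with an adjusted p-value in the deposited table were taken as tested (14063, Benjamini-Hochberg). The rest had means of 21.93 or less. Intervals are 95% Wald intervals.

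Reads were recovered as whole numbers whose weighted sum gives the deposited mean, with weights (4 size factors) from the lowest means, of 2 reads in all. Libraries were put into groups by the sign of the fold changes of such genes. A first attempt without fold changes left many high means ambiguous. From a mean of 300 the group ratio was then required to match the deposited fold change within 0.01 (log2), so agreement is a check only below 300: there 3875 genes with means from 20 differed by a median of 0.0013 and at most 0.028. A single solution was found for 94.9% of genes (92.8% of tested genes), several for 93, and 914 with means over 10000 were not attempted. Recomputed size factors differed by at most 0.38%. In simulated data all 17816 single solutions were right. Recovered reads ran from 21422361 to 28381377 per library. Libraries of a group differed beyond counting noise (chi-square per degree of freedom 22.6 for SOX9 siRNA and 48.1 for control siRNA).

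limma 3.58.1 in R 4.3.3 (trend, log2 of normalized reads plus 0.5) was an alternative. The deposited table is the main result, as it holds no counts. The members and lists were chosen with earlier results of these data known, and no list was tested. Every member is accounted for. Called members have full values, uncalled members with a mean of at least 100 a fold change and interval, and other lists name up to 4 called genes with the smallest p. SOX9, FOXJ1, RFX2 and RFX3 were named by rule, and marker genes to describe the lists after their values were seen. Some genes that the rule selects are not reported here.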

Additional observations from a re-analysis of the deposited data

How the results depend on the processing

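The count of 8 axoneme genes higher and 0 lower was also found with adjustment over every gene, at an adjusted p under 0.01 or 0.1, with both centrings and under an empirical null. It was 7 at a mean count of at least 50, which leaves out SPEF1, and 6 at 100, which also leaves out CFAP69. It was 2 against a 1.5-fold change and 0 by limma-trend on recovered reads. Leaving out each library in turn in that fit gave 0 to 0; the lone library of a group is then assumed to vary like the others. The smallest adjusted limma p of an axoneme gene was 0.976 without the deeper SOX9 siRNA library, 0.0698 without the shallower one, 0.838 without the deeper control library and 0.0515 without the shallower one. No called gene changed sign in these alternatives. In the limma fits that was fixed beforehand, since the groups of the called genes did not overlap. The other settings keep the deposited fold changes, and the centrings only take off medians of -0.02 or -0.07. Called log2 fold changes were at least 1.00, so their signs could not change there either. Among genes not called, RSPH4A (-0.10) and C11orf1 (0.01) turned without the deeper SOX9 siRNA library, and CCDC65 (-0.01) and CCDC39 (-0.02) without the deeper control library. The median log2 fold change was 0.72 over the 16 axoneme genes with a mean count of at least 100, and the cause was not tested. It was 0.38 over the 27 genes with a zero-centred normal prior, which by its making pulls fold changes towards 0.

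Over all genes, 60 were higher and 49 lower at an adjusted p under 0.01, 167 and 201 under 0.1, 59 and 37 under the empirical null, 3 and 0 against a 1.5-fold change, and 0 and 0 by limma-trend (0 and 2 without the shallower SOX9 siRNA library). Centring on the most abundant genes gave 170 and 76, beside 122 and 132 as deposited. No paired analysis was possible because the recovered libraries carry no replicate numbers. Low read numbers limit the spoke head, tektin and HYDIN genes.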
